A study of Homo sapiens with 6 samples.

Results

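The genes described here are the ribosome biogenesis genes of the deposited table, chosen as the genes whose KEGG annotation holds Ribosome biogenesis in eukaryotes and neither RNA degradation nor Ribosome. They numbered 79 of the 20030 genes listed. XRN1 and XRN2 carry the KEGG term too and were left out because they are also annotated to RNA degradation, which leaves 79 of 81. The RNA came from cells labelled H929, an established multiple myeloma line, in 6 libraries. The 3 IGF2BP1-KD libraries are from cells with knockdown of IGF2BP1, an mRNA-binding protein that reads the m6A mark on RNA, and the 3 IGF2BP1-NC libraries are from cells with a negative control. The study's methods describe lentiviral vectors and drug selection of stably transduced cells. They do not describe the negative control, so whether its cells passed through the same transduction and selection is not stated. The methods name 2 target sequences for the IGF2BP1 hairpins, and which of them these libraries carry is not given in the sources used here. The labels do not say whether replicates came from separate cultures, so the p-values measure only the spread between these libraries, which may be technical.

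Ribosomes are assembled in the nucleolus. RNA polymerase I makes a long precursor RNA, and an early particle, the 90S or small subunit processome, forms on it from the t-UTP, PWP2 (UTPB) and MPP10 subcomplexes and other factors. Small nucleolar RNPs guide chemical modification of the RNA, box C/D RNPs for 2′-O-methylation and box H/ACA RNPs for pseudouridine. RNase MRP, a relative of the tRNA-processing enzyme RNase P with which it shares most of its protein subunits, cuts the precursor, and the 40S and 60S particles are then exported and finished in the cytoplasm. Cells that grow and divide fast, cancer cells among them, make many ribosomes, and MYC is a known activator of the genes concerned.

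IGF2BP1 was examined first, as the targeted gene. Its FPKM, a count per length of gene and depth of library, was 48.1, 43.7 and 49.1 in IGF2BP1-NC and 13.5, 12.9 and 12.8 in IGF2BP1-KD. The log2 fold change, here always IGF2BP1-KD over IGF2BP1-NC, was -1.85 (SE, the standard error, 0.065, adjusted p = 4.81e-08). The labelled cell type was checked against its markers. Of 15 plasma cell markers, 3 (PRDM1, SDC1 and XBP1) were above 1 CPM, a count scaled to library size, in every library, and 7, the defining genes IRF4, CD38 and TNFRSF17 among them, had at most 3 counts in every library. Each of 20 erythroid markers passed 1 CPM in all 6 libraries, and their summed level was 9026 to 11052 CPM in IGF2BP1-NC and 9912 to 10851 CPM in IGF2BP1-KD. The plasma cell markers summed to 78.3 to 161 CPM in IGF2BP1-NC and 81.6 to 86.8 CPM in IGF2BP1-KD, and 2 of 8 T cell and monocyte markers, CD3D and LYZ, passed 1 CPM. The expression therefore goes against the plasma cell label, in both groups alike, and its part in the results below was not tested. In bulk RNA, fewer cells of a type and less RNA per cell cannot be told apart.

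Of the 79 ribosome biogenesis genes, 71 had enough counts to be tested among 11994 genes. The mean FPKM of these 71 ranged from 1.36 for the ATPase gene SPATA5 to 396 for CSNK2B, the regulatory subunit of casein kinase 2, with a median of 30.1, against a median of 8.22 over all tested genes. Together the genes took 0.955% to 1.03% of the counts of a library. Their summed level was 9618, 10158 and 10393 CPM in IGF2BP1-NC and 9783, 9849 and 9481 CPM in IGF2BP1-KD. The groups overlapped, and the ratio of IGF2BP1-KD to IGF2BP1-NC was 0.965.

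The libraries of a group did not sit at the same level for these genes. IGF2BP1-NC library 1 was below the mean of the other IGF2BP1-NC libraries for 51 of the 71 genes, with a median log2 difference of -0.11, where the median over all tested genes was 0.0028. Library 3 of the same group was above the others for 54 of the 71, with a median of 0.062. In IGF2BP1-KD, library 3 was below the others for 46 of the 71, with a median of -0.032.

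A minority of these genes differed between IGF2BP1-KD and IGF2BP1-NC, by small amounts and in both directions. With edgeR's quasi-likelihood test and Benjamini-Hochberg adjustment over all tested genes, 6 of 71 (8.45%) were higher in IGF2BP1-KD at an adjusted p under 0.05, against 13.7% of all tested genes, and 10 of 71 (14.1%) were lower, against 14.5% of all tested genes. In either direction 16 of 71 passed (22.5%), where the background was 28.2%. A change of at least 1.2-fold at the same threshold was found for 11 genes (15.5%), 5 higher and 6 lower, against a background of 24.0%. None of the 71 reached 2-fold, a size that 567 of all tested genes (4.73%) reached at an adjusted p under 0.05. The higher genes were RPP40, RPP25L, CSNK2A2, POP1, REXO5 and POP4. The lower genes were PWP2, RCL1, NHP2, IMP4, REXO2, FBL, NOB1, GTPBP4, TCOF1 and WDR3.

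The changes were small beside those of the whole table. The median absolute log2 fold change was 0.10 for the 71 genes and 0.19 for all tested genes, and the median standard error was 0.071 and 0.096. The 71 genes were the more abundant, and no match for abundance was made. The signed medians were -0.019 and -0.0048. Without IGF2BP1-NC library 3 they were 0.021 and 0.001. Upper-quartile scaling moved both upwards together, to 0.013 and 0.026. The 3 values of a group did not overlap those of the other group for 33 of 71 genes (46.5%), against 45.6% of all tested genes, and all 16 genes past the threshold were among these. Of the 55 genes not past the threshold, 33 had a 95% interval that lay wholly within 1.2-fold in either direction, and for the other 22 part of the interval lay outside it.

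The counts depended on single libraries and on the scaling, and the calls over all tested genes moved with them. Without IGF2BP1-NC library 1, 4 genes were higher and 15 lower, without library 2 the counts were 4 and 4, and without library 3 they were 5 and 6. Of all tested genes, 32.8%, 19.7% and 22.8% were called in these fits, against 28.2% with every library. Without IGF2BP1-KD library 1 or library 2 there were 2 higher and 6 lower genes, and without library 3 there were 5 and 3, where 19.7%, 18.9% and 20.4% of all tested genes were called. Scaling by upper-quartile factors gave 10 higher and 7 lower genes, and scaling by library size alone gave 9 and 10. RPP40 and CSNK2A2 stayed higher, and IMP4 and RCL1 stayed lower, past the threshold in each of the 15 alternatives run. REXO2 and TCOF1 were lost with upper-quartile factors, with at least 10 counts in every library and with limma on FPKM, and NOB1 with limma on FPKM. On GRCh38.p14, RPP40 lies on chromosome 6 from 4988426 to 5004037, CSNK2A2 on chromosome 16 from 58157907 to 58198106, IMP4 on chromosome 2 from 130342897 to 130347967 and RCL1 on chromosome 9 from 4792944 to 4861066.

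**Figure D1:**
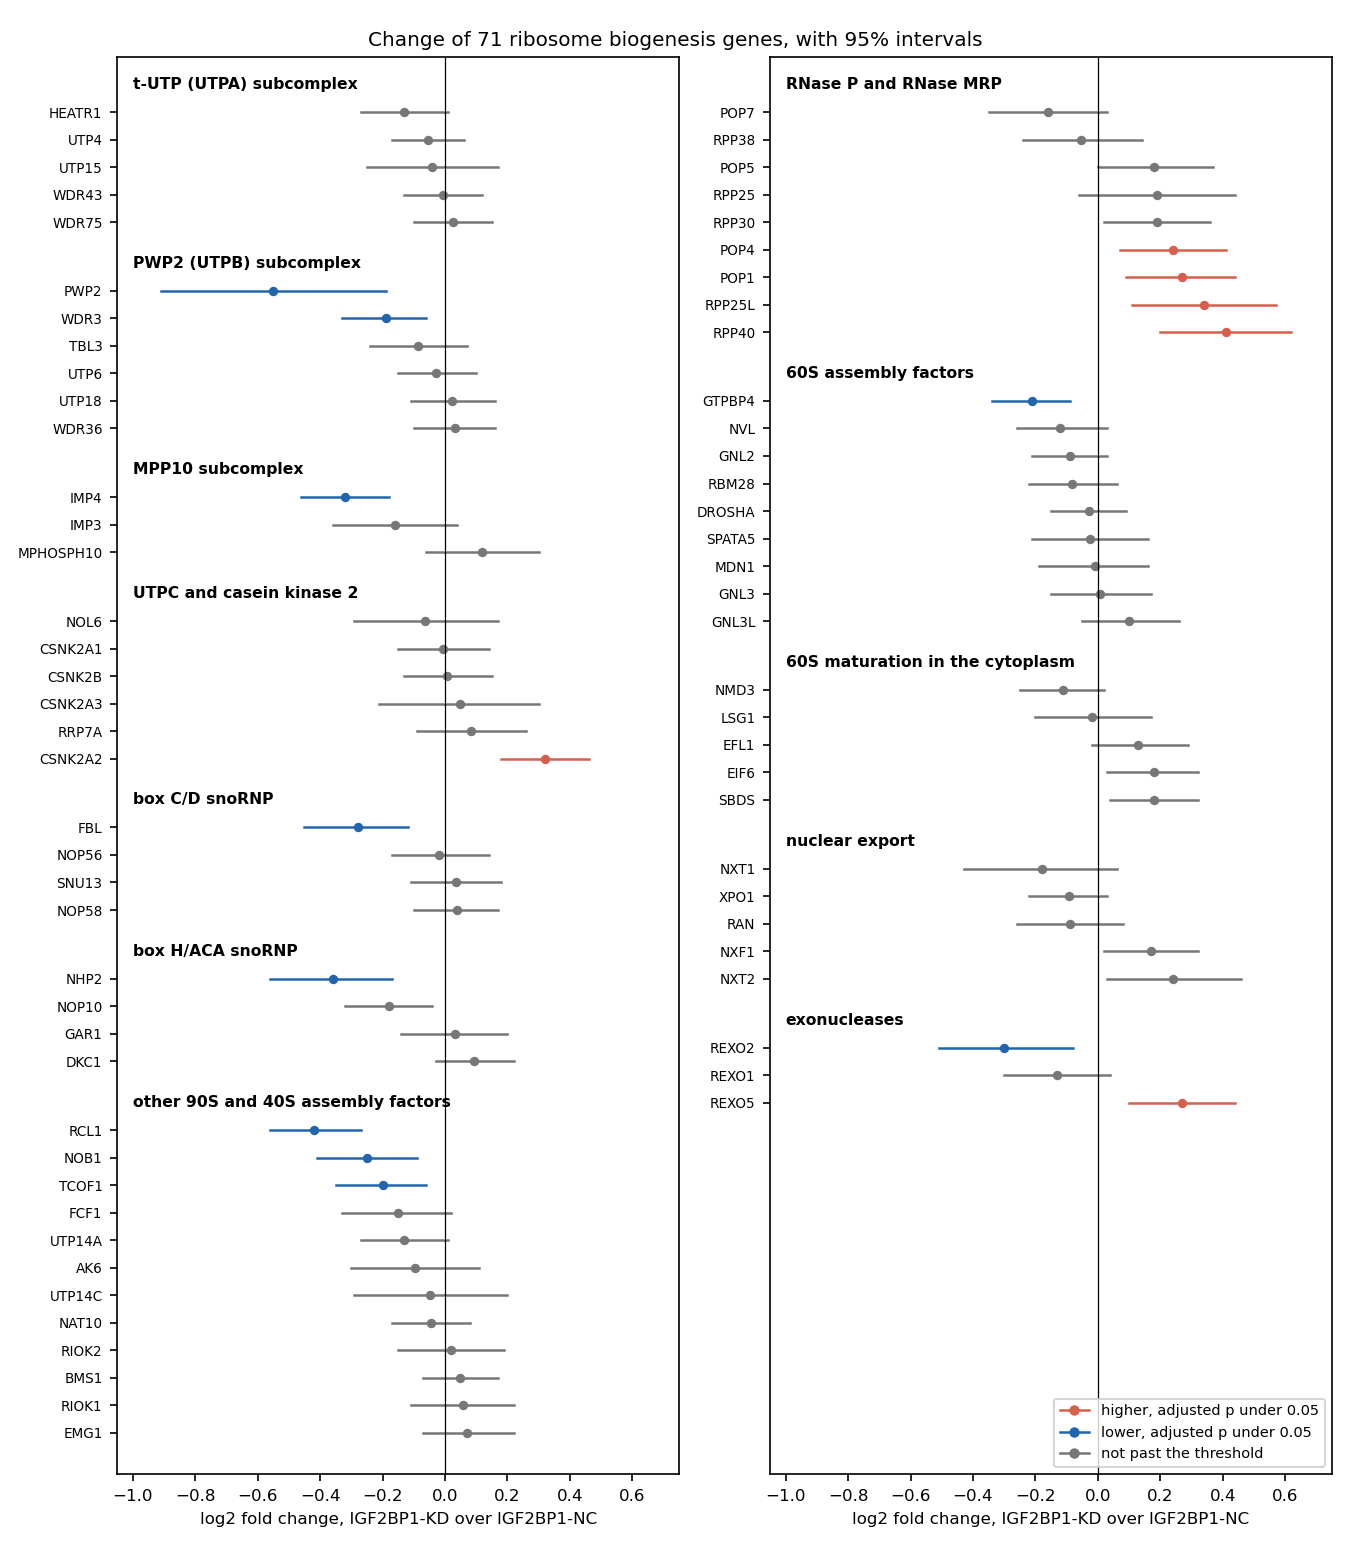
Log2 fold change of the 71 tested genes (point) with its 95% interval (line), by the role of the protein. Orange marks the 6 genes higher and blue the 10 genes lower in IGF2BP1-KD, and 4 of the 6 orange points lie among the RNase P and RNase MRP subunits.

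The protein subunits of RNase P and RNase MRP held 4 of the 6 higher genes. Of their 9 genes, 4 passed the threshold, all higher (44.4%, against 13.7% of all tested genes), and 7 had a positive log2 fold change, with a median of 0.19 against -0.0048 over all tested genes. The summed level of the 9 was 273, 314 and 306 CPM in IGF2BP1-NC and 326, 328 and 320 CPM in IGF2BP1-KD. The groups did not overlap, which was not particular to this role. Summed levels also stood apart for 60S maturation in the cytoplasm, where IGF2BP1-KD was higher. They did so too for the PWP2 subcomplex and the other 90S and 40S factors, where IGF2BP1-KD was lower. Taken singly, 45.6% of all tested genes had groups that did not overlap. RPP40, a subunit of both enzymes, had an FPKM of 5.48, 6.13 and 6.25 in IGF2BP1-NC and of 7.91, 8.12 and 7.86 in IGF2BP1-KD. Every IGF2BP1-KD library was above every IGF2BP1-NC library, with a log2 fold change of 0.41 (SE 0.096, adjusted p = 0.00948). RPP25L, which encodes a relative of the RNA-binding subunit RPP25, had an FPKM of 15.4, 18.1 and 15.7 in IGF2BP1-NC and of 22.3, 20.7 and 19.7 in IGF2BP1-KD, a log2 fold change of 0.34 (SE 0.10, adjusted p = 0.03). RPP25 itself was less abundant, with an FPKM of 6.71, 8.24 and 7.10 against 8.24, 7.87 and 9.18. Its groups overlapped, and its log2 fold change of 0.19 had an interval from -0.06 to 0.44 (adjusted p = 0.245). Whether the paralogs differed in response was not tested.

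POP1 encodes the largest protein of the complex. Its FPKM was 7.14, 7.13 and 6.57 in IGF2BP1-NC and 8.59, 8.82 and 7.84 in IGF2BP1-KD, a log2 fold change of 0.27 (SE 0.08, adjusted p = 0.0277). POP4, a subunit also known as RPP29, had an FPKM of 14.4, 15.3 and 16.7 in IGF2BP1-NC and of 18.1, 18.5 and 18.7 in IGF2BP1-KD. Its log2 fold change was 0.24 (SE 0.079, adjusted p = 0.0417). For POP1 and POP4 the lowest IGF2BP1-KD library was above the highest IGF2BP1-NC library. RPP30 and POP5 had log2 fold changes of 0.19 and 0.18 without overlap of the groups, at adjusted p = 0.0889 and 0.131, and did not pass, except RPP30 with upper-quartile factors (adjusted p = 0.0482). POP7, the most abundant of the 9, had a mean FPKM of 82.8 ± 9.23 (SD, n = 3) in IGF2BP1-NC against 74.8 ± 0.846 (SD, n = 3) in IGF2BP1-KD, and its log2 fold change of -0.16 (interval -0.35 to 0.03) pointed the other way without passing. Without IGF2BP1-NC library 1, POP7 was at -0.26 and past the threshold (adjusted p = 0.0078), and without library 2 it was at -0.093. RPP38 stood at -0.054, with an interval from -0.24 to 0.14.

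Of these 4 calls, RPP25L and POP4 were lost without IGF2BP1-NC library 1, POP1 and RPP25L without IGF2BP1-NC library 3, POP1 and POP4 without IGF2BP1-NC library 2, and POP1, POP4 and RPP25L without IGF2BP1-KD library 1 or 2. POP4 was also lost without IGF2BP1-KD library 3. POP1 and POP4 were not called by DESeq2, and POP4 was lost without a filter on low counts.

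The t-UTP subcomplex links transcription of the precursor to its processing. None of its 5 genes passed the threshold, against 28.2% of all tested genes. Their log2 fold changes lay between -0.13 (HEATR1) and 0.02 (WDR75). HEATR1 was at -0.18 and past the threshold without IGF2BP1-NC library 1 (adjusted p = 0.0306). UTP4, the most abundant of the 5, had a mean FPKM of 83.7 ± 1.29 (SD, n = 3) in IGF2BP1-NC against 81.3 ± 1.18 (SD, n = 3) in IGF2BP1-KD.

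In the PWP2 subcomplex 2 of 6 genes were lower (33.3%, against 14.5% of all tested genes). PWP2, a WD-repeat scaffold protein, had an FPKM of 6.86, 7.71 and 10.8 in IGF2BP1-NC and of 5.92, 5.99 and 5.56 in IGF2BP1-KD. Library 3 of IGF2BP1-NC stood well above the others, and the groups did not overlap. Its log2 fold change of -0.55 (SE 0.16, adjusted p = 0.0304) was the most negative of the 71 with all libraries. Without IGF2BP1-NC library 3 it was -0.33 (adjusted p = 0.049), smaller than that of RCL1, and the call was lost when IGF2BP1-NC library 2 or any IGF2BP1-KD library was left out. Of the 50-base stretches in PWP2's longest coding transcript, 91.65% also occur in transcripts of an annotated near-copy. The reads counted for PWP2 are therefore uncertain. WDR3, another WD-repeat subunit, had an FPKM of 35.7, 35.7 and 36.4 against 32.7, 32.2 and 30.0. The log2 fold change was -0.19 (SE 0.061, adjusted p = 0.0339), which 5 of the 6 fits with a library left out lost, as did upper-quartile scaling. The other 4 genes, TBL3, UTP6, UTP18 and WDR36, had log2 fold changes from -0.085 to 0.032. The most abundant of the 6, UTP6, had a mean FPKM of 61.7 ± 0.884 (SD, n = 3) in IGF2BP1-NC against 61.0 ± 1.86 (SD, n = 3) in IGF2BP1-KD.

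The MPP10 subcomplex helps the U3 snoRNA pair with the precursor. Of its 3 genes IMP4 was lower (33.3%, against 14.5% of all tested genes). It had an FPKM of 33.4, 36.3 and 36.3 in IGF2BP1-NC and of 29.8, 28.1 and 27.7 in IGF2BP1-KD. All IGF2BP1-KD libraries were below all IGF2BP1-NC libraries, with a log2 fold change of -0.32 (SE 0.066, adjusted p = 0.00473). Its partner IMP3, the most abundant of the 3, had an FPKM of 72.7, 91.9 and 88.3 against 77.1, 76.0 and 74.8. IGF2BP1-NC library 1 was below every IGF2BP1-KD library for IMP3, and its log2 fold change was -0.16 (interval -0.36 to 0.04). Without that library IMP3 was at -0.27 and past the threshold (adjusted p = 0.00456), and without IGF2BP1-NC library 2 it was at -0.089. MPHOSPH10, which gives the subcomplex its name, stood at 0.12 (interval -0.06 to 0.30).

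Casein kinase 2 is a protein kinase of 2 catalytic and 2 regulatory subunits that also takes part in the UTPC subcomplex. CSNK2A2, its alternative catalytic subunit, had an FPKM of 27.5, 25.7 and 26.8 in IGF2BP1-NC and of 32.9, 33.7 and 33.8 in IGF2BP1-KD. The groups did not overlap, and the log2 fold change was 0.32 (SE 0.062, adjusted p = 0.00346). The principal catalytic subunit CSNK2A1 had an FPKM between 36.0 and 41.1 in IGF2BP1-NC and between 37.4 and 40.4 in IGF2BP1-KD. Its groups overlapped, with a log2 fold change of -0.0052 with an interval from -0.15 to 0.14. Whether the paralogs differed in response was not tested. CSNK2B was at 393 ± 21.0 FPKM (SD, n = 3) in IGF2BP1-NC against 398 ± 5.06 (SD, n = 3) in IGF2BP1-KD. Of its 50-base stretches, 55.93% also occur in transcripts of other genes, so the reads counted for CSNK2B are uncertain. RRP7A and NOL6 of UTPC and the CSNK2A1-like gene CSNK2A3 had log2 fold changes from -0.064 to 0.084. NOL6 was at -0.19 and past the threshold without IGF2BP1-NC library 1 (adjusted p = 0.0274), and 70.79% of the 50-base stretches of CSNK2A3 also occur in CSNK2A1. In CSNK2A2, 35.67% of the exonic bases overlap a gene on the opposite strand, against 15.11% in GTPBP4, 17.13% in WDR3 and 20.42% in NOB1. Among genes that did not pass, the share reached 58.13% in IMP3 and 55.53% in EMG1. The strand setting of the counting is not given in the sources used here.

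**Figure D2:**
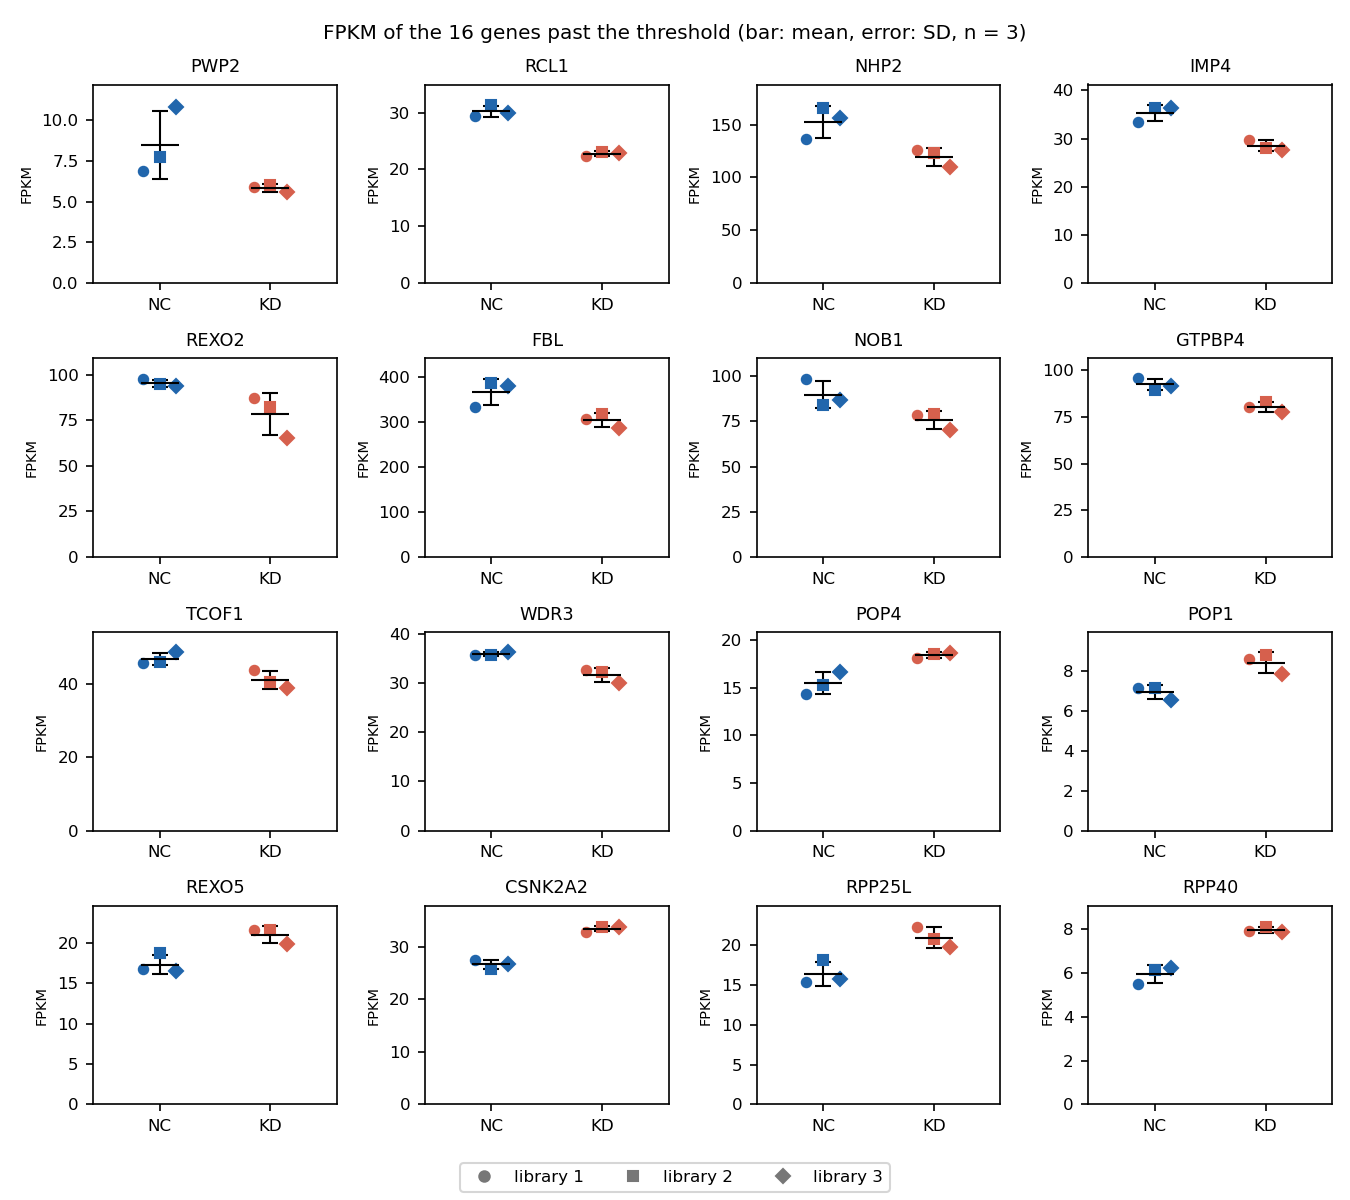
FPKM in each library of the 16 genes with an adjusted p under 0.05, in order of log2 fold change, in IGF2BP1-NC (blue, left) and IGF2BP1-KD (orange, right), with the mean and SD of 3 libraries. No gene's groups overlap, and PWP2 has 1 high IGF2BP1-NC library at 10.8 and REXO2 has 1 low IGF2BP1-KD library at 65.3.

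Each class of snoRNP had 1 lower core protein of 4, where 14.5% of all tested genes were lower. FBL, the fibrillarin methyltransferase of the box C/D RNPs, had an FPKM of 333, 386 and 380 in IGF2BP1-NC and of 307, 317 and 286 in IGF2BP1-KD. The highest IGF2BP1-KD library was below the lowest IGF2BP1-NC library, and the log2 fold change was -0.28 (SE 0.076, adjusted p = 0.017). The call was lost in 4 of the 6 fits with a library left out. The other box C/D proteins NOP56, NOP58 and SNU13 had log2 fold changes of -0.018, 0.037 and 0.036, with intervals that ended at -0.17 and 0.18 at the widest.

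NHP2, an RNA-binding core protein of the box H/ACA RNPs and of telomerase, had an FPKM of 136, 166 and 156 in IGF2BP1-NC and of 126, 123 and 110 in IGF2BP1-KD. Its log2 fold change was -0.36 (SE 0.088, adjusted p = 0.0116), and of all alternatives it was lost only without IGF2BP1-NC library 2. Of its exonic bases 28.05% overlap a gene on the opposite strand, and 13.0% of its 50-base stretches occur in its pseudogenes. NOP10, the smallest of the core proteins and the most abundant of the 4 transcripts, had an FPKM of 203, 220 and 208 against 182, 194 and 186. The groups did not overlap, but the log2 fold change of -0.18 did not pass (adjusted p = 0.0565). NOP10 passed without IGF2BP1-NC library 1 (adjusted p = 0.0181) and with limma on FPKM. DKC1, the pseudouridine synthase, had a log2 fold change of 0.094 (interval -0.03 to 0.22), and GAR1 of 0.031 (interval -0.14 to 0.20).

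Of 12 other factors of 90S and 40S assembly, 3 were lower and none higher. For comparison, 14.5% of all tested genes were lower and 13.7% were higher. RCL1, an early factor related to RNA cyclases, had an FPKM of 29.3, 31.3 and 30.0 in IGF2BP1-NC and of 22.3, 23.1 and 22.9 in IGF2BP1-KD. The libraries within a group lay close together and the groups far apart, with a log2 fold change of -0.42 (SE 0.066) and the lowest adjusted p of the 71 genes, 0.00114. NOB1, the endonuclease that makes the final cut at the end of the small subunit RNA, had an FPKM of 98.5, 84.3 and 86.7 against 78.7, 79.0 and 70.1. Its log2 fold change was -0.25 (SE 0.073, adjusted p = 0.0241), lost without IGF2BP1-KD library 3. TCOF1 encodes treacle, a nucleolar protein that acts with RNA polymerase I. It had an FPKM of 45.6, 45.9 and 48.6 against 43.7, 40.4 and 38.8, a log2 fold change of -0.20 (SE 0.066, adjusted p = 0.0413) that 4 of the 6 fits with a library left out lost.

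The other 9 of these factors had log2 fold changes from -0.15 (FCF1) to 0.072 (EMG1). FCF1 was at -0.23 and past the threshold without IGF2BP1-NC library 1 (adjusted p = 0.0247). The kinases RIOK1 and RIOK2, which act late on the 40S particle, stood at 0.057 (interval -0.11 to 0.22) and 0.02 (interval -0.15 to 0.19). UTP14A stood at -0.13 (interval -0.27 to 0.01), at 37.5 ± 0.610 FPKM (SD, n = 3) in IGF2BP1-NC against 34.5 ± 1.63 (SD, n = 3) in IGF2BP1-KD. Its retrogene copy UTP14C had a mean FPKM of 4.74 ± 0.416 (SD, n = 3) against 4.63 ± 0.563 (SD, n = 3), and since all of its exonic bases lie in exons annotated to ALG11, its reads cannot be told apart from those of ALG11. NAT10, the RNA cytidine acetyltransferase, and BMS1, a GTPase of the 90S particle, had intervals of -0.17 to 0.08 and -0.07 to 0.17. AK6, an adenylate kinase of late 40S assembly, stood at -0.097 (interval -0.30 to 0.11).

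Of 9 genes for 60S assembly 1 was lower (11.1%, against 14.5% of all tested genes). GTPBP4, a GTPase of early 60S particles, had an FPKM of 95.9, 89.6 and 91.8 in IGF2BP1-NC and of 80.4, 83.0 and 77.6 in IGF2BP1-KD. No value of a group reached into the other, and the log2 fold change was -0.21 (SE 0.057, adjusted p = 0.0172), lost without IGF2BP1-KD library 1 or library 3. The nucleolar GTPase gene GNL3, which encodes nucleostemin, had an FPKM of 72.0, 82.4 and 80.4 against 74.5, 82.9 and 80.8. Library 1 was the lowest of each group, and the log2 fold change was 0.0084 (interval -0.15 to 0.17). Its paralog GNL3L stood at 0.10 (interval -0.05 to 0.26). The remaining 6 genes, GNL2, NVL, RBM28, DROSHA, SPATA5 and MDN1, had log2 fold changes from -0.12 to -0.01. SPATA5, an ATPase of cytoplasmic 60S maturation, stood at -0.026 (interval -0.21 to 0.16), and its paralog SPATA5L1, which is outside the KEGG set, at -0.18 (interval -0.38 to 0.03).

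None of the 5 genes for the last steps of the 60S subunit in the cytoplasm passed, against 28.2% of all tested genes. For 3 of the 5 the groups stood apart without overlap, as they did for 45.6% of all tested genes. EIF6, which keeps the 60S subunit from joining the 40S subunit too early, had an FPKM of 104, 113 and 117 in IGF2BP1-NC and of 130, 123 and 128 in IGF2BP1-KD, a log2 fold change of 0.18 (adjusted p = 0.0633). SBDS and the GTPase EFL1 together release EIF6. SBDS had an FPKM of 87.6, 91.0 and 96.9 against 102, 105 and 108, a log2 fold change of 0.18 (adjusted p = 0.0544), and EFL1 had a log2 fold change of 0.13 (adjusted p = 0.181). EIF6 and SBDS passed with library sizes only (adjusted p = 0.0368 and 0.0332), upper-quartile factors (0.0288 and 0.0245), at least 10 counts in every library, limma on FPKM and without IGF2BP1-NC library 3. The export adaptor NMD3 and the GTPase LSG1, which removes it, stood at -0.11 and -0.019.

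None of the 5 tested genes for nuclear export passed, where 28.2% of all tested genes did. RAN, the GTPase that drives transport and the most abundant of them, had an FPKM of 301, 326 and 338 against 317, 321 and 276, and the groups overlapped. XPO1, the exportin that carries both subunits, stood at -0.092 (interval -0.22 to 0.03). The mRNA exporter NXF1 stood at 0.17 without overlap of the groups (adjusted p = 0.0771), and passed with library sizes only (adjusted p = 0.0475) and upper-quartile factors (adjusted p = 0.0386). Its cofactors NXT1 and NXT2 had log2 fold changes of -0.18 (interval -0.43 to 0.06) and 0.24 (interval 0.03 to 0.46, adjusted p = 0.0879), and the difference between them was not tested.

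The 3 exonuclease genes went separate ways. REXO5, a nucleolar exonuclease, had an FPKM of 16.7, 18.7 and 16.5 in IGF2BP1-NC and of 21.6, 21.6 and 19.8 in IGF2BP1-KD, a log2 fold change of 0.27 (SE 0.077, adjusted p = 0.0248). REXO2, an oligoribonuclease of mitochondria, had an FPKM of 97.5, 94.9 and 93.8 against 87.4, 82.0 and 65.3. IGF2BP1-KD library 3 was far below the other libraries. The log2 fold change was -0.30 (SE 0.097, adjusted p = 0.0433), and it was lost in 5 of the 6 fits with a library left out. Without IGF2BP1-KD library 3 it was -0.18 (adjusted p = 0.0963). REXO1 stood at -0.13 (interval -0.30 to 0.04). REXO5 was lost without IGF2BP1-NC library 3 or without IGF2BP1-KD library 1 or 2.

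The 8 genes not tested had few or no counts. NXF5, LOC100288562, LOC101929601, LOC101929627 and LOC643802 were at 0 in every library, which is compatible with up to 3 counts by counting error alone. NXF3, a relative of NXF1, had an FPKM of 0.0609, 0.0605 and 0.0874 in IGF2BP1-NC and of 0.236, 0.156 and 0.363 in IGF2BP1-KD. NXF2 and NXF2B, whose transcripts are nearly identical, were below 0.7 FPKM in every library, and their reads cannot be assigned between them. DESeq2, and edgeR with no filter on low counts, tested 74 of the 79 genes. In each of these fits a gene outside the 71 was called higher.

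A wider list of 85 genes with roles in ribosome biogenesis outside the KEGG set was examined beside these 71. All 85 were tested, 2 were higher (2.35%, against 13.7% of all tested genes) and 12 lower (14.1%, against 14.5%), with a median log2 fold change of -0.039. LYAR, a nucleolar growth regulator, and TWISTNB, a subunit of RNA polymerase I, had log2 fold changes of 0.27 (adjusted p = 0.0154) and 0.31 (adjusted p = 0.00644), and LYAR was lost without IGF2BP1-KD library 1 or 2. The 5 lowest were NPM3, a nucleoplasmin family chaperone, at -0.67 (adjusted p = 0.000273), BUD23, a methyltransferase of the small subunit RNA, at -0.64 (adjusted p = 0.000257), PIH1D1, a subunit of the R2TP complex that helps assemble box C/D RNPs, at -0.61 (adjusted p = 0.000305), WDR18, a factor of 60S release, at -0.57 (adjusted p = 0.000382) and RSL24D1, a 60S placeholder protein, at -0.37 (adjusted p = 0.0228). RSL24D1 was lost without IGF2BP1-KD library 1 or 3, and without IGF2BP1-NC library 1 it was -0.24 (adjusted p = 0.0127). The FPKM of BUD23 was 94.3, 114 and 99.5 in IGF2BP1-NC and 66.6, 67.3 and 65.7 in IGF2BP1-KD. By class, 4 of 14 chaperones and snoRNP assembly factors (28.6%) and 5 of 34 factors of 60S assembly (14.7%) were lower. So were 2 of 22 factors of 90S and 40S assembly (9.09%) and 1 of 15 genes of RNA polymerase I (6.67%). Of all tested genes, 14.5% were lower. Without IGF2BP1-NC library 1 the list had 5 higher and 23 lower genes, and without IGF2BP1-KD library 2 it had 1 and 6.

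MYC had an FPKM of 55.5, 46.4 and 47.9 in IGF2BP1-NC and of 40.1, 37.6 and 33.8 in IGF2BP1-KD, a log2 fold change of -0.43 (SE 0.08, adjusted p = 0.00281). The canonical E-box CACGTG, the sequence that MYC with its partner MAX and several other factors bind, was looked for in the promoters of the ribosome biogenesis genes. It reads the same on both strands. The promoter windows run from 250 bases before to 50 bases after an annotated start site (RefSeq, GRCh38.p14), and 66 of the 71 tested genes had at least 1. The E-box was in a window of 21 of these 66 genes (31.8%), against 12.9% of the tested genes that have a window and 8.77% of all genes with one. Counted by window, of which a gene can have several, it was in 7.26% of all windows of that length. It was found in 5 of the 9 lower genes with a window, in 0 of the 5 higher genes with a window and in 16 of the 52 genes that did not pass (30.8%). A part of MYC in these levels was not tested. MPHOSPH10, NOP58, POP1, SNU13 and TCOF1 had no window.

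The windows of the lower genes that hold the E-box are shown to give its place and surroundings, each as a stretch of at most 60 bases, 5′ to 3′ on the strand of the gene, that ends with the E-box in capitals. They lie at chr21:44107346-44107405 on the plus strand (PWP2), chr9:4792894-4792953 on the plus strand (RCL1), chr2:130342858-130342917 on the plus strand (IMP4), chr19:39846368-39846427 on the minus strand (FBL) and chr11:114439249-114439308 on the plus strand (REXO2). Counted from the start site, the E-box begins at base 2 of the PWP2 transcript, base 5 of RCL1, base 16 of IMP4 and base 7 of FBL, and at -164 for REXO2. IMP4 has another upstream, at -203. The other lower genes with a window, WDR3, NHP2, NOB1 and GTPBP4, do not hold the E-box and are not shown. Genes that did not pass also hold it, among them GNL2 and WDR43 at base 4, UTP18 at base 5 and GNL3 at base 7.
PWP2: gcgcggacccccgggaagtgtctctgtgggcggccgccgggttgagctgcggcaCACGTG
RCL1: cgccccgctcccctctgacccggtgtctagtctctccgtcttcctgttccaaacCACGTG
IMP4: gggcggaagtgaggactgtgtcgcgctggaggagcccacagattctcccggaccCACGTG
FBL: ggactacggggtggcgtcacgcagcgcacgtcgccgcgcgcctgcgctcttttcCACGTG
REXO2: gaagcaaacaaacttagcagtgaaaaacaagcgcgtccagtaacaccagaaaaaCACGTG

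For comparison, the 60 bases that end just before a start site are shown for the 5 higher genes with a window, none of which holds the E-box in its window. They lie at chr6:5004038-5004097 on the minus strand (RPP40), chr9:34612098-34612157 on the minus strand (RPP25L), chr16:58198107-58198166 on the minus strand (CSNK2A2), chr16:20806467-20806526 on the plus strand (REXO5) and chr19:29606223-29606282 on the plus strand (POP4).
RPP40: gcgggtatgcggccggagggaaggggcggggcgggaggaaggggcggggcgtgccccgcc
RPP25L: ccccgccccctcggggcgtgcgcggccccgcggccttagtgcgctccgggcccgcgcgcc
CSNK2A2: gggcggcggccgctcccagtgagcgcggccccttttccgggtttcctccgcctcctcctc
REXO5: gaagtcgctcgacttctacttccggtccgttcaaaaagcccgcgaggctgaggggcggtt
POP4: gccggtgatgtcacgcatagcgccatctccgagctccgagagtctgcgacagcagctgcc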

How the data were processed

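RNA from 6 libraries, grouped by their labels, was sequenced. Per the labels and the study's methods, the authors used Trimmomatic for trimming, HISAT2 for mapping (GRCh38) and HTSeq for the counts, which were deposited as unscaled whole numbers. The FPKM values the authors deposited, named as made with Cufflinks, equal the counts over a gene length and the library total. Versions, annotation release and strand setting of the counting are not given in the sources used here, although the library kit marks strand. Columns with the authors' annotation were used for the KEGG terms only. Total counts per library were 16885449 to 18112179.

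The counts were tested by edgeR 4.0.16 under R 4.3.3, with filterByExpr, TMM scaling and a robust quasi-likelihood fit (two-sided glmQLFTest), with Benjamini-Hochberg adjustment over all 11994 tested genes, and the biological coefficient of variation was 9.55%. Alternatives were DESeq2 1.42.0, limma 3.58.1 (voom, and log2(FPKM + 1) or log2(FPKM + 0.1)), library sizes only, upper-quartile factors, no filter, at least 10 counts in every library, a replicate block, all genes with the KEGG term and each library left out. A count without the 6 genes that share over 50% of their 50-base stretches with other genes was added after seeing the data. The tests were checked on simulated counts. Tables and figures were made with Python 3.11.15, pandas 2.3.3 and matplotlib 3.10.9. Genes were placed by RefSeq (GRCh38.p14). Shared sequence was measured in GENCODE, as the 50-base stretches of a gene's longest coding transcript that occur in transcripts of other genes.

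The genes and lists were chosen with earlier results of these data known. The named genes are all those past the threshold, the most abundant of each role, close paralogs, untested genes, IGF2BP1, MYC and, in the wider list, up to 5 rises and 5 falls past the threshold (only 2 rises passed). The remaining genes are given as the rest of their role, and those of them named without passing the threshold were chosen after their values were seen.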

Additional observations from a re-analysis of the deposited data

How the results depend on the processing

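With upper-quartile factors the genes higher in IGF2BP1-KD rose from 6 to 10. With a library left out, the higher genes ranged from 2 to 5, the lower genes from 3 to 15, the genes changed at least 1.2-fold from 7 to 9, and in the wider list the higher genes from 1 to 5 and the lower genes from 6 to 23. The lowest counts of lower genes came without IGF2BP1-KD library 3 (3) and the highest without IGF2BP1-NC library 1 (15). No other alternative moved these counts by over 1.5 times, and IGF2BP1 kept its call in every alternative. Without the genes that share sequence with others, 6 were higher and 9 lower.

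Genes near 0 changed sign without passing the threshold. CSNK2A1 turned to 0.005 with library sizes only, 0.025 with upper-quartile factors and 0.007 with at least 10 counts in every library and with limma on either FPKM scale. Upper-quartile factors moved the median of all tested genes from -0.005 to 0.026, and under them SPATA5 turned to 0.004 and UTP6 to 0.003, and without a filter CSNK2B and GNL3 turned to -0.001. With a library left out, CSNK2A1 ranged from -0.053 to 0.031, CSNK2B from -0.038 to 0.056, GNL3 from -0.058 to 0.054, RIOK1 from -0.006 to 0.11, RIOK2 from -0.029 to 0.082, SPATA5 from -0.080 to 0.035 and UTP14C from -0.13 to 0.044. Of 660 values of named genes under the alternatives, 563 kept direction and side of the threshold, 63 no longer passed, 11 newly passed and 23 changed sign. The cause was not tested.

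Deviations of same-numbered libraries from their group means correlated at -0.05202, 0.03625 and -0.106, and not every library correlated best with its own number. With 3 libraries in a group this check cannot exclude a pairing, and the labels do not state one. A replicate block gave 5 higher and 8 lower genes, without POP4 (adjusted p = 0.0559), WDR3 (0.0663) and TCOF1 (0.0778), and 2913 calls over all genes against 3386.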

Other observations

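The 5′ to 3′ exonuclease genes XRN1 and XRN2, which carry the ribosome biogenesis term and were left out for their RNA degradation term, had different values. XRN1, the cytoplasmic enzyme, had an FPKM of 6.16, 5.16 and 5.31 in IGF2BP1-NC and of 6.33, 7.09 and 7.36 in IGF2BP1-KD, a log2 fold change of 0.31 (adjusted p = 0.0163 by edgeR), lost without IGF2BP1-NC library 2 or 3 or IGF2BP1-KD library 2 or 3. XRN2, the nuclear enzyme, had an FPKM of 25.7, 24.8 and 26.2 against 24.2, 22.9 and 23.2, a log2 fold change of -0.14 (adjusted p = 0.115). Whether XRN1 and XRN2 differed in response was not tested. With both counted, 7 genes with the term were higher and 10 lower.

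Among the other lower genes of the wider list were the helicase genes RUVBL1 and RUVBL2, which act with PIH1D1 in the R2TP complex. They stood at -0.24 (adjusted p = 0.0128) and -0.29 (adjusted p = 0.0146). RUVBL1 had an FPKM of 35.9, 37.8 and 35.1 in IGF2BP1-NC and of 31.5, 30.7 and 30.6 in IGF2BP1-KD. RUVBL2 had an FPKM of 125, 131 and 116 against 110, 103 and 93.4. The groups of neither gene overlapped. RUVBL1 was lost without IGF2BP1-NC library 2 or IGF2BP1-KD library 2, and RUVBL2 without these or IGF2BP1-KD library 3. RPAP3, another subunit of the complex, stood at 0.16 (interval -0.01 to 0.33, adjusted p = 0.135). The late 40S factor PNO1, which acts with NOB1, stood at -0.26 (adjusted p = 0.0258), and the RNA polymerase I and III subunit POLR1D at -0.26 (adjusted p = 0.0135). PNO1 was lost in 5 of the 6 fits with a library left out, and POLR1D without IGF2BP1-KD library 3. The 60S factors NOP2, NOC2L and TMA16 were lower too, at -0.20 (adjusted p = 0.0401), -0.23 (adjusted p = 0.0194) and -0.33 (adjusted p = 0.0178). Each of these calls was lost in several fits with a library left out. These genes were chosen after their values were seen.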
